A study of Arabidopsis thaliana with 20 samples.

Results

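The plant cuticle is a lipid layer that seals the surface of leaves, and its waxes are made by the epidermal cells underneath. Acyl chains are lengthened at the endoplasmic reticulum by an elongase whose condensing enzyme sets the chain length, then turned into alkanes and their hydroxylated products by a decarbonylation branch or into alcohols and esters by a reductive branch, and finally carried across the plasma membrane by ABC transporters. The 10 genes described here follow that order: KCS1 (AT1G01120), CER6 (AT1G68530) and CER2 (AT4G24510) act in chain elongation, CER1 (AT1G02205), CER3 (AT5G57800) and MAH1 (AT1G57750) in the alkane branch, CER4 (AT4G33790) and WSD1 (AT5G37300) in the alcohol and ester branch, and ABCG11 (AT1G17840) and ABCG12 (AT1G51500) in export. They were taken by locus identifier from their known roles, with earlier results of these data known, and all 10 were found among the 37336 genes of the count table. Of these, 8 reached an average of 1 RPKM (counts scaled to library total and exon length) over the 20 samples and were tested together with all 16288 genes that did so. CER4 and MAH1 did not reach it.

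RNA was measured in leaves of 6-week-old wild-type Columbia-0 Arabidopsis thaliana plants in 4 groups of 5 biological replicates, each replicate holding 4 leaves from different plants. Non-infiltrated leaves were left untreated. The other leaves received about 40 µL through a needleless syringe and were collected 2 days later: water-infiltrated leaves received water, SWNTs leaves received single walled carbon nanotubes with adsorbed single stranded RNA (SWNTs+ssRNA, 50 ng/µL), and PEI-SWNTs leaves received polyethyleneimine-coated nanotubes loaded with plasmid DNA (PEI-SWNTs+pDNA, 50 ng/µL). The RNA had no target in the Arabidopsis genome and the plasmid encoded a green fluorescent protein. The SWNTs were pristine nanotubes, whereas PEI-SWNTs were made from carboxylated ones. The SWNTs and PEI-SWNTs groups therefore differ in the starting nanotube, in coating and in nucleic acid, and the contributions of these cannot be told apart. The water group measures the response to infiltration itself, and the comparison of each nanomaterial with it asks what was added by the material.

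The libraries held between 13387714 and 29737496 counts on genes. Members were called at an adjusted p under 0.05 in edgeR's quasi-likelihood test, and fold changes are given on the log2 scale with their standard error (SE). CPM values are counts scaled to each library's total over the tested genes after TMM normalization, and RPKM values given below are this CPM per kilobase of exon. The defining epidermis markers were present in every group: the summed CPM of ATML1, PDF1, PDF2, HDG2 and FDH, with 0 of the 5 genes at zero, ran from 763 to 891 in non-infiltrated, 768 to 823 in water-infiltrated, 721 to 811 in SWNTs and 557 to 593 in PEI-SWNTs leaves. The sum was lowest in PEI-SWNTs leaves. FDH, which is also among the chain building genes described below, gave most of it, with a mean CPM of 529.8 ± 38.0 (SD, n = 5) in non-infiltrated and 409 ± 15.1 in PEI-SWNTs leaves. Of the 5 markers, those called lower against non-infiltrated leaves numbered 2 with water (PDF1 and HDG2, log2 fold changes -4.49 and -0.61), 4 with SWNTs (all but FDH, median of the 5 -0.42) and 5 with PEI-SWNTs. PDF1 reached an average of 1 RPKM only through non-infiltrated leaves. Its mean RPKM was 7.45 there, 0.338 with water, 0.862 with SWNTs and 0.896 with PEI-SWNTs. In PEI-SWNTs leaves 3 of 5 (ATML1, PDF2 and FDH) were lower than with water and than with SWNTs, while HDG2 averaged 14.1 CPM beside 13.02 with water, and PDF1 1.25 beside 0.472. Markers of other cell types also differed from non-infiltrated leaves. Of 4 guard cell markers, 3 were lower with water, 3 with SWNTs and 4 with PEI-SWNTs, with median sums of 58.1, 38.9, 41.3 and 33.0 CPM in the 4 groups in the order above. The summed CPM of 2 trichome markers, not tested, ran from 3.25 to 9.34 in non-infiltrated and from 0.917 to 3.15 in infiltrated leaves. Of 3 phloem markers 2 were lower in each infiltrated group, and of 3 mesophyll markers 0 were lower with water, 0 with SWNTs and 1 with PEI-SWNTs. Among all tested genes, 16.4% were lower than in non-infiltrated leaves with water, 20.3% with SWNTs and 31.2% with PEI-SWNTs. With PEI-SWNTs, 24.3% of all tested genes were lower than with water and 19.0% lower than with SWNTs. The part of these markers in the results below was not tested. In whole leaves, fewer epidermal cells and less RNA per epidermal cell cannot be told apart. SWNTs replicate 1 had the highest CPM of its group for all 8 tested members, and member calls and counts that rest on it are given with and without it.

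The members spanned a wide range of levels. In non-infiltrated leaves the mean RPKM was 339 ± 89.1 (SD, n = 5, as for the following values) for CER6, 253 ± 25.1 for KCS1, 135 ± 21.1 for ABCG12 and 68.4 ± 8.97 for ABCG11. It was 39.8 ± 5.24 for CER3, 23.7 ± 3.23 for CER2, 14.4 ± 4.12 for CER1, 2.37 ± 1.04 for WSD1 and 0.494 ± 0.252 for CER4. The condensing enzymes and the exporters were thus the most abundant transcripts per length, and only CER6 and KCS1 overlapped in their 5 replicates among neighbours in this order. In SWNTs leaves CER1 stood at 42.9 ± 18.7 RPKM, above CER2 at 29.6 ± 6.91, with overlapping replicates. In the same leaves CER3 stood at 101 ± 9.83 RPKM, above ABCG11 at 74.0 ± 4.89, with no overlap. CER3 also stood above ABCG11 in PEI-SWNTs leaves, at 69.6 ± 12.6 and 53.0 ± 4.67 RPKM, with overlapping replicates. In PEI-SWNTs leaves CER1 and CER2 both averaged 12.1 RPKM, with an SD of 4.60 and 1.98.

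**Figure D1:**
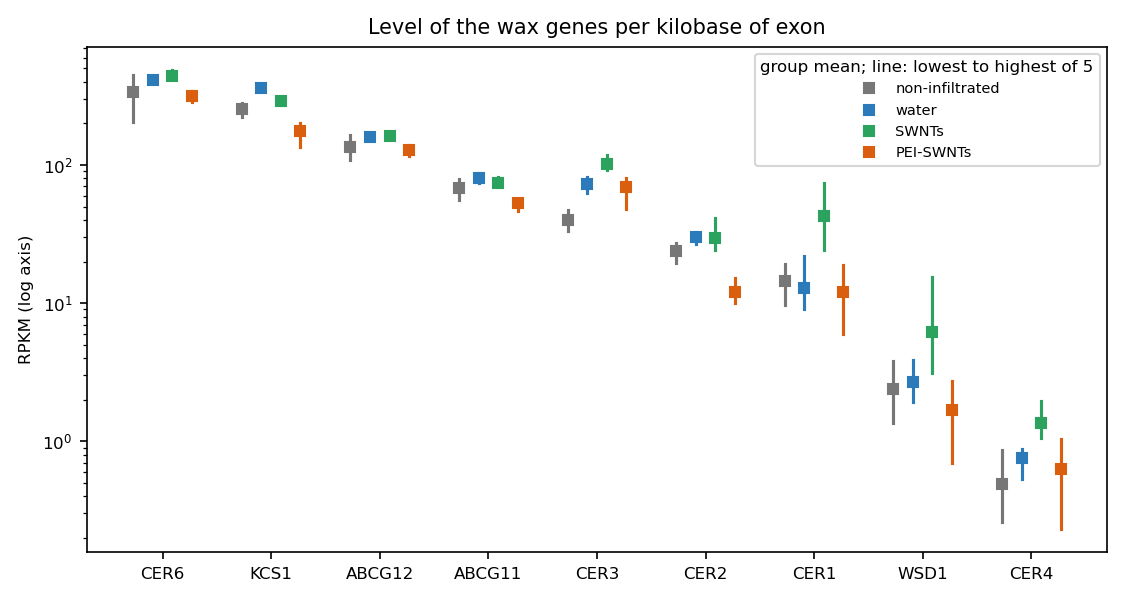
Mean RPKM (log axis) of 9 wax genes in the 4 groups, with a line from the lowest to the highest of the 5 replicates. CER6 and KCS1 lead in every group, CER1 lies above CER2 in SWNTs leaves, and CER3 lies above ABCG11 in SWNTs and PEI-SWNTs leaves; MAH1, close to 0 throughout, is not drawn.

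Leaves that received PEI-SWNTs had less RNA of all 8 tested wax genes than leaves that received SWNTs, with log2 fold changes from -0.33 for ABCG12 to -1.85 for WSD1. Against non-infiltrated leaves, KCS1, CER2, CER3, ABCG11 and ABCG12 were higher with water, and CER1, CER3, CER6, WSD1 and ABCG12 were higher with SWNTs. The counts in each comparison, with the share of all tested genes called in the same direction, were as follows. In water-infiltrated against non-infiltrated leaves, 5 of 8 members were higher and 0 lower, where 16.4% of all tested genes were higher and 16.4% lower. In SWNTs against non-infiltrated leaves, 5 were higher, 3 of them at least 2-fold, and 0 lower, against 21.6% of all genes higher and 20.3% lower. In PEI-SWNTs against non-infiltrated leaves, 1 was higher and 3 lower, against 30.4% and 31.2%.

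In SWNTs against water-infiltrated leaves, 2 members were higher and 1 lower, where 7.52% of all tested genes were higher and 6.14% lower. In PEI-SWNTs against water-infiltrated leaves, 0 were higher and 5 lower, against 27.7% and 24.3%. In PEI-SWNTs against SWNTs leaves, 0 were higher and 8 lower, 3 of them at least 2-fold, against 22.3% and 19.0%, and in each of the 8 the 5 PEI-SWNTs replicates lay below all 5 SWNTs replicates. The median log2 fold change of the 8 members was 0.26, 0.35, -0.31, 0.06, -0.50 and -0.63 in these comparisons, in the order given, beside medians over all tested genes between -0.02 and 0.01. Without SWNTs replicate 1, the counts were 3 higher in SWNTs against non-infiltrated leaves, 2 higher and 1 lower against water, and 8 lower in PEI-SWNTs against SWNTs. The comparisons with non-infiltrated leaves share their 5 control samples, and the members' values in them are not independent.

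**Figure D2:**
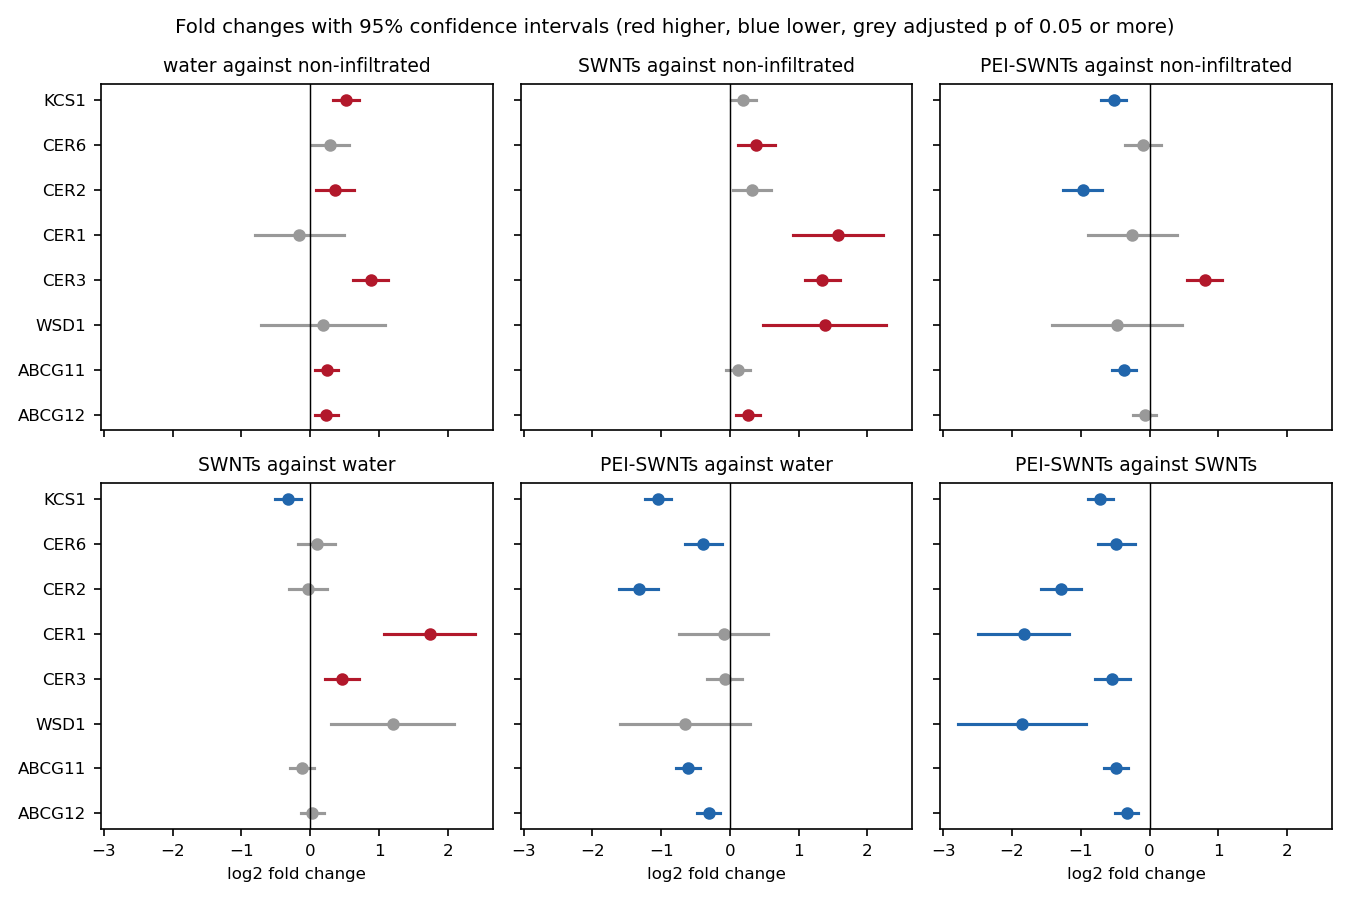
Log2 fold change of the 8 tested wax genes in the 6 comparisons, with 95% confidence intervals; red marks genes higher and blue genes lower at an adjusted p under 0.05. All 8 intervals lie below 0 in PEI-SWNTs against SWNTs. In SWNTs against non-infiltrated leaves the points of CER1, CER3 and WSD1 lie above a log2 fold change of 1. Of their intervals only that of CER3 lies wholly above it.

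Among the chain elongation genes, KCS1 and CER2 were more than 2-fold lower with PEI-SWNTs than with water. KCS1, on the reverse strand of chromosome 1 (57164 to 59215, a single exon), encodes a condensing enzyme of very-long-chain fatty acid elongation. Its CPM was 454, 508, 575, 493 and 568 in the non-infiltrated replicates and 766, 707, 767, 739 and 747 in the water-infiltrated ones. It was 620.4, 581, 603, 609 and 561 in SWNTs and 407, 380.0, 334, 277 and 414 in PEI-SWNTs leaves. All water replicates lay above and all PEI-SWNTs replicates below every other library. KCS1 rose with water by 0.52 ± 0.089 (SE) on the log2 scale against non-infiltrated leaves (adjusted p = 0.00028). It fell with PEI-SWNTs by 0.52 ± 0.089 (adjusted p = 4.8e-05) against the same leaves. Against water it was lower in both nanomaterial groups, by 0.32 ± 0.089 in SWNTs (log2 fold change -0.32, adjusted p = 0.019) and by a log2 fold change of -1.04 ± 0.089 in PEI-SWNTs (adjusted p = 1.8e-08).

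CER6, also a single-exon gene on the reverse strand of chromosome 1 (25712414 to 25715024), encodes the condensing enzyme that makes the longest wax precursors of shoots. Its CPM was 940.5, 979.8, 1162, 535 and 814 in non-infiltrated leaves, the widest spread of any group, and 1085, 1137, 1051, 1081 and 1070.4 with water. It was 1274, 1133, 1126, 1133 and 1128 with SWNTs and 853, 866, 894, 747 and 786 with PEI-SWNTs. The PEI-SWNTs replicates lay below all water and SWNTs replicates and within the range of the non-infiltrated ones. CER6 was lower in PEI-SWNTs leaves than with water (log2 fold change -0.39 ± 0.13, adjusted p = 0.016) and than with SWNTs (-0.48 ± 0.13, adjusted p = 0.0054). It was higher with SWNTs than in non-infiltrated leaves (0.39 ± 0.13, adjusted p = 0.021), a call lost without SWNTs replicate 1 (0.35, adjusted p = 0.051). The change with water against non-infiltrated leaves, 0.29 ± 0.13, had an adjusted p of 0.087.

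CER2 encodes an acyltransferase-like protein that works with CER6 in the last rounds of elongation, and lies on the forward strand of chromosome 4 (12660687 to 12662656). Its CPM was 34.6, 41.9, 40.7, 31.6 and 44.2 in non-infiltrated leaves and 43.5, 49.7, 53.4, 48.1 and 52.4 with water. It was 67.7, 45.0, 42.8, 39.2 and 46.0 with SWNTs and 20.2, 19.6, 16.2, 17.6 and 24.6 with PEI-SWNTs. Every PEI-SWNTs replicate lay below every replicate of the other 3 groups. CER2 fell by 0.97 ± 0.14 on the log2 scale against non-infiltrated leaves (adjusted p = 5.0e-06). Its fold change was -1.33 ± 0.14 against water (adjusted p = 1.8e-07) and -1.29 ± 0.14 against SWNTs (adjusted p = 5.4e-07), and -1.16 in the latter without SWNTs replicate 1. The rise with water, 0.35 ± 0.13, had an adjusted p of 0.046. The exons of CER2 overlap those of AT4G07275, a long noncoding RNA, over 19.4% and those of AT4G24520 over 5.9% of their length, both on the reverse strand, and since the strand setting of the counting is not stated, reads of these genes cannot be told apart there.

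The 250 bases before the annotated starts of CER2 and CER6 are shown because both hold the ABRE core ACGTGT, the motif bound by factors of the abscisic acid response, and both genes fell in PEI-SWNTs against water and SWNTs leaves. They come from RefSeq (TAIR10.1, chr4:12660437-12660686 forward and chr1:25715025-25715274 reverse), read 5′ to 3′ on the strand of the gene, with the match, which is on the opposite strand in both, in capitals.
CER2: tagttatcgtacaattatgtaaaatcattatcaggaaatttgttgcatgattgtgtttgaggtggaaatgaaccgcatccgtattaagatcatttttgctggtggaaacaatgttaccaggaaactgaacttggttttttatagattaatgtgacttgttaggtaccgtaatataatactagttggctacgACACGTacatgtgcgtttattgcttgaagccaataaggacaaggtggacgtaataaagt
CER6: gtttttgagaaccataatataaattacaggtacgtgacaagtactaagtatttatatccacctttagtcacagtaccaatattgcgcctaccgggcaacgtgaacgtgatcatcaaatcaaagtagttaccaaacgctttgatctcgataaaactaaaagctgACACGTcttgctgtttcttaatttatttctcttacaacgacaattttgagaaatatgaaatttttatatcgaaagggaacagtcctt
The match begins 59 bases before the start in CER2 and 87 bases before it in CER6. In windows from 250 bases before to 50 bases after the start, on both strands, the ABRE core (ACGTGG or ACGTGT) occurred in 3 of 10 members, the third being CER4, and in 18.9% of 27443 promoters. KCS1, ABCG11 and ABCG12 also fell in PEI-SWNTs against water and against SWNTs leaves and had no match. A relation of the motif to the response was not tested. The MYB core (CNGTTA or CNGTTG) occurred in 9 of 10 members and 46.0% of promoters, the exception being KCS1, and the GCC box (GCCGCC) in 0 of 10 and 2.57%. These are matches of letters only, and no motif match overlapped a match of another motif.

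**Figure D3:**
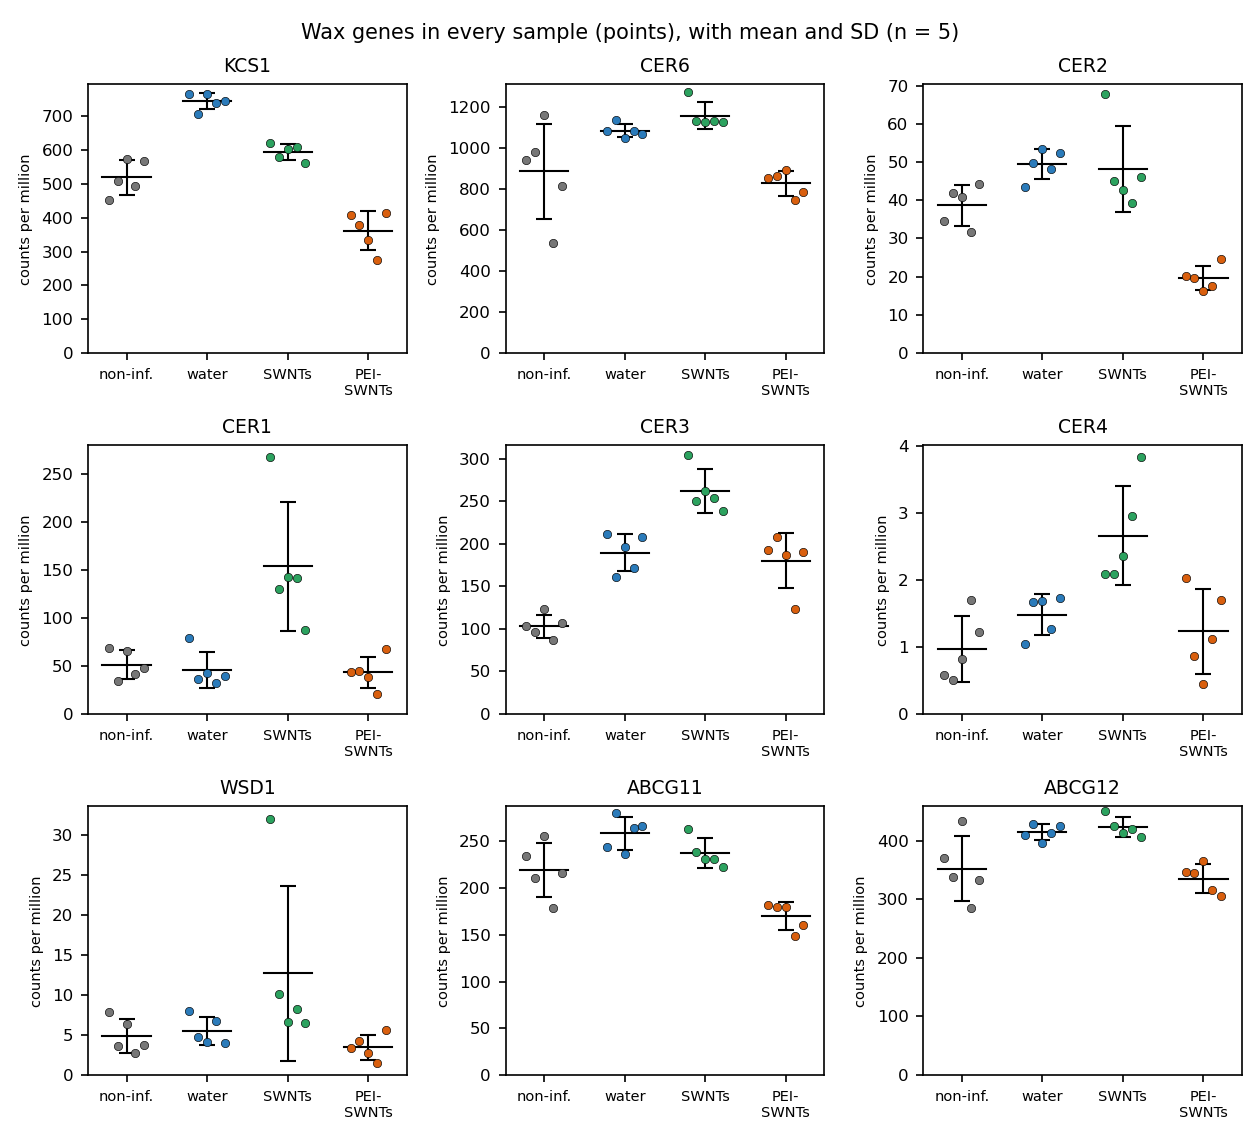
CPM (linear axes from 0) of 9 wax genes in each of the 20 samples, with the mean and SD of each group (n = 5). KCS1 and CER2 are lowest in all 5 PEI-SWNTs replicates, CER1 and CER3 are highest in SWNTs leaves, and SWNTs replicate 1, the leftmost green point, stands above its group for CER1, CER2, CER6 and WSD1.

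In the alkane branch, CER1 and CER3 were higher in SWNTs than in water-infiltrated leaves. CER1, on the forward strand of chromosome 1 (418416 to 422579), and CER3, on the forward strand of chromosome 5 (23420184 to 23424117), encode partners that together convert very-long-chain acyl groups to alkanes. CER1 had a CPM of 68.7, 34.8, 65.3, 41.7 and 47.6 in non-infiltrated and 79.1, 36.9, 42.4, 32.5 and 40.1 in water-infiltrated leaves. It had 268, 131, 143, 142 and 87.7 in SWNTs and 43.7, 45.3, 39.1, 21.3 and 67.5 in PEI-SWNTs leaves. All SWNTs replicates lay above every library of the other groups, which overlapped among themselves. The log2 fold change of CER1 in SWNTs leaves was 1.58 ± 0.31 against non-infiltrated (adjusted p = 0.00054) and 1.74 ± 0.31 against water (adjusted p = 0.0011). In PEI-SWNTs against SWNTs leaves it was -1.83 ± 0.32 (adjusted p = 0.00013). Without SWNTs replicate 1 these values were 1.28, 1.43 and -1.56, with adjusted p-values of 0.0020, 0.0036 and 0.00035. CER1 in water and PEI-SWNTs leaves did not pass the test against non-infiltrated leaves, with 95% intervals of the log2 fold change from -0.80 to 0.49 and from -0.90 to 0.40.

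CER3 was the only member called higher in all 3 infiltrated groups against non-infiltrated leaves. Its CPM was 103, 96.2, 123, 86.4 and 107 in non-infiltrated and 211, 161, 196, 172 and 208 in water-infiltrated leaves. It was 304, 250.2, 262, 254 and 238 in SWNTs and 193, 208, 187, 123 and 191 in PEI-SWNTs leaves. The SWNTs replicates lay above all others and the non-infiltrated ones below all others, with PEI-SWNTs replicate 4 nearest to them. CER3 rose by 0.88 ± 0.12 with water (adjusted p = 4.4e-05), by 1.34 ± 0.12 with SWNTs (adjusted p = 2.1e-07) and by 0.81 ± 0.12 with PEI-SWNTs (adjusted p = 1.2e-05). It was higher with SWNTs than with water (0.46 ± 0.12, adjusted p = 0.014; 0.39 and 0.045 without SWNTs replicate 1) and lower with PEI-SWNTs than with SWNTs (-0.54 ± 0.12, adjusted p = 0.0015). Between PEI-SWNTs and water the difference was -0.07, with a 95% interval from -0.33 to 0.18. The difference between the responses of CER1 and CER3 was not tested.

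MAH1, on the reverse strand of chromosome 1 (21383812 to 21385709), encodes the cytochrome P450 that hydroxylates alkanes to secondary alcohols and ketones in stems. It had 0, 0, 0, 1 and 3 counts in non-infiltrated leaves, 1 count in 1 water and 1 PEI-SWNTs library each, and 0 in all others, including all 5 of SWNTs. A count of 0 allows up to 3 counts in a library, so that no group exceeded this floor and no fold change is given.

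In the alcohol and ester branch, transcripts were rare and the highest levels were in SWNTs leaves. CER4, on the reverse strand of chromosome 4 (16204096 to 16207956), encodes the fatty acyl-CoA reductase that makes primary alcohols. It had 14, 13, 22, 41 and 36 counts in non-infiltrated leaves and 25, 31, 29, 26 and 48 with water. It had 37, 38, 39, 45 and 91 counts with SWNTs and 34, 15, 6, 21 and 36 with PEI-SWNTs. Scaled to CPM, every SWNTs library (2.08 to 3.83) lay above every library of the other groups (0.450 to 2.02). CER4 was tested only when all 25909 genes with a count were kept. There it was higher with SWNTs than in non-infiltrated leaves (log2 fold change 1.47 ± 0.33, adjusted p = 0.0021) and lower with PEI-SWNTs than with SWNTs (-1.11 ± 0.33, adjusted p = 0.017), while SWNTs against water gave 0.84 ± 0.33 (adjusted p = 0.14).

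WSD1, on the forward strand of chromosome 5 (14767426 to 14770396), encodes the wax synthase that joins primary alcohols to acyl groups as wax esters. Its CPM was 7.88, 3.59, 6.40, 2.81 and 3.76 in non-infiltrated and 8.04, 4.78, 4.07, 6.72 and 3.99 in water-infiltrated leaves. It was 32.1, 10.12, 6.63, 8.32 and 6.45 in SWNTs and 3.33, 4.24, 2.77, 1.45 and 5.65 in PEI-SWNTs leaves. SWNTs replicates 3 and 5 lay within the ranges of both controls, and SWNTs replicates 2 and 4 above them. SWNTs replicate 1 stood more than 3-fold above the next library. WSD1 was higher with SWNTs than in non-infiltrated leaves (1.38 ± 0.43, adjusted p = 0.014), a call lost without that library (0.69, adjusted p = 0.11). Against water the value was 1.198 ± 0.43 (adjusted p = 0.067; 0.50 and 0.37 without that library). The PEI-SWNTs libraries lay below all SWNTs libraries, by a log2 fold change of -1.85 ± 0.45 (adjusted p = 0.0026), or -1.18 without SWNTs replicate 1 (adjusted p = 0.0099).

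The exporters changed by less than 2-fold in each comparison. ABCG11, on the forward strand of chromosome 1 (6142402 to 6146521), encodes an ABC transporter that exports wax and cutin precursors. Its CPM was 234, 211, 256, 179 and 216 in non-infiltrated and 244, 281, 237, 264 and 267 in water-infiltrated leaves. It was 264, 239, 231, 231 and 223 in SWNTs and 182, 179, 180.1, 148 and 160.3 in PEI-SWNTs leaves. The PEI-SWNTs libraries lay below all water and SWNTs libraries, and their range held 1 non-infiltrated library, replicate 4. ABCG11 fell by 0.37 ± 0.083 against non-infiltrated leaves (adjusted p = 0.00080), with -0.61 ± 0.083 against water (adjusted p = 6.4e-06) and -0.48 ± 0.083 against SWNTs (adjusted p = 0.00013). With water it was higher by 0.24 ± 0.083 (adjusted p = 0.034). Its exons overlap those of AT1G17850 over 18.6% and of the long noncoding RNA AT1G05337 over 13.4% of their length, on the reverse strand, where the reads cannot be told apart.

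ABCG12, on the reverse strand of chromosome 1 (19097712 to 19101265), encodes a wax exporter that can pair with ABCG11. Its CPM was 371, 338, 434, 285 and 334 in non-infiltrated and 411, 429.7, 397, 414 and 425 in water-infiltrated leaves. It was 451, 426, 413, 420.2 and 407 in SWNTs and 347, 345, 365, 317 and 305 in PEI-SWNTs leaves. As for ABCG11, the PEI-SWNTs libraries lay below all water and SWNTs libraries. ABCG12 was lower with PEI-SWNTs than with water (-0.31 ± 0.080, adjusted p = 0.0035) and than with SWNTs (-0.33 ± 0.080, adjusted p = 0.0026). It was higher than in non-infiltrated leaves with water (0.24 ± 0.080, adjusted p = 0.030) and with SWNTs (0.26 ± 0.080, adjusted p = 0.013), and -0.07 with PEI-SWNTs (95% interval -0.24 to 0.10).

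The calls of CER2, ABCG11 and ABCG12 with water against non-infiltrated leaves were close to the threshold. The CER2 call was lost on leaving out any of 8 of the 10 libraries (all but non-infiltrated replicate 5 and water replicate 1, adjusted p up to 0.099). The ABCG11 call was lost without replicate 2, 4 or 5 of either group (adjusted p up to 0.083), and the ABCG12 call without non-infiltrated replicate 2, 4 or 5 or water replicate 2 or 5 (adjusted p up to 0.072). Those of KCS1 and CER3 were kept in each case.

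The 250 bases before the start of ABCG11 are shown because they hold 2 copies of the L1 box, the motif bound by the epidermal homeodomain factors ATML1 and PDF2, which were themselves lower in PEI-SWNTs leaves than in each other group. The sequence is from RefSeq (TAIR10.1, chr1:6142152-6142401, forward strand), 5′ to 3′, with the L1 boxes in capitals.
ABCG11: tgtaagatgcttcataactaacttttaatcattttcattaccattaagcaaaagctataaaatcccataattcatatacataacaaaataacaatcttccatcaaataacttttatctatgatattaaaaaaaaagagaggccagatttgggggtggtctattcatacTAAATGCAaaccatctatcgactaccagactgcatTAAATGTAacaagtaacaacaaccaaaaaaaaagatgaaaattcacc
They begin 82 and 47 bases before the start. The L1 box (TAAATGTA or TAAATGCA, both strands) occurred in 2 of 10 members within the window of 300 bases, the other being ABCG12, where it lies on the opposite strand from base 3 of the transcript, and in 5.10% of promoters. In PEI-SWNTs against SWNTs leaves ATML1 had a log2 fold change of -0.30 ± 0.070 (adjusted p = 0.0018), PDF2 of -0.23 (adjusted p = 0.011) and FDH of -0.46 (adjusted p = 4.1e-06). PDF1 and HDG2 did not pass the test, and the median of the 5 epidermis markers was -0.23, beside -0.63 for the 8 members. Against non-infiltrated leaves all 5 epidermis markers were lower with PEI-SWNTs, with a median of -0.65, beside -0.31 for the members. There 31.2% of all tested genes were lower. ATML1 and PDF2 averaged 85.7 and 88.8 CPM with SWNTs, beside 117.6 and 112.1 with water. In that comparison ABCG11 and ABCG12 were not called, at -0.12 and 0.03. KCS1 and CER2, which fell more than ABCG11 with PEI-SWNTs against water, hold no L1 box. The part of the epidermis markers and of the motif in the members' change was not tested.

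Most of the other tested genes of chain building were lower in PEI-SWNTs leaves. Of 22 further genes of chain building, 20 were tested, and 12 fell and 1 rose in PEI-SWNTs against SWNTs leaves (median log2 fold change -0.61). The largest fall was that of KCS2, another condensing enzyme, at -1.34 ± 0.41 (adjusted p = 0.013), and the rise was that of LACS4, a long-chain acyl-CoA synthetase, at 0.48 ± 0.064 (adjusted p = 2.3e-06). Against water, 12 fell and 4 rose (median -0.54), with KCS2 at -1.17 and KCS8, a condensing enzyme, at 1.56 at the ends. Against non-infiltrated leaves, 12 fell and 2 rose (median -0.49), with KCS19 at -3.22 and KCS12 at 1.29, both condensing enzymes. Of all tested genes, 19.0% fell and 22.3% rose with PEI-SWNTs against SWNTs. These shares were 24.3% and 27.7% against water, and 31.2% and 30.4% against non-infiltrated leaves. The enzymes of the other elongase steps, named here after their values were seen, also fell against SWNTs: KCR1, the ketoacyl-CoA reductase, by 0.81, PAS2, the dehydratase, by 0.96, and ECR, the enoyl-CoA reductase, by 0.91 on the log2 scale.

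With water and SWNTs the same list was mixed. Against non-infiltrated leaves, 4 rose and 5 fell with water (median 0.09), with KCS3 at 0.62 and KCS19 at -3.24 at the ends. With SWNTs, 6 rose and 4 fell (median 0.11), with KCS12 at 1.23 and KCS19 at -2.54. In SWNTs against water-infiltrated leaves, 3 rose, with KCS8 at 1.78, and 1 fell, KCS11 at -0.33 (median 0.10). Nothing particular to the list is read from these counts. Beside non-infiltrated leaves, 16.4% of all tested genes rose and 16.4% fell with water, and 21.6% and 20.3% with SWNTs. The shares in SWNTs against water were 7.52% and 6.14%. KCS19 was low in all infiltrated leaves: its CPM ran from 12.2 to 39.5 in non-infiltrated leaves and from 0.912 to 8.83 in the infiltrated groups, with no overlap.

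**Figure D4:**
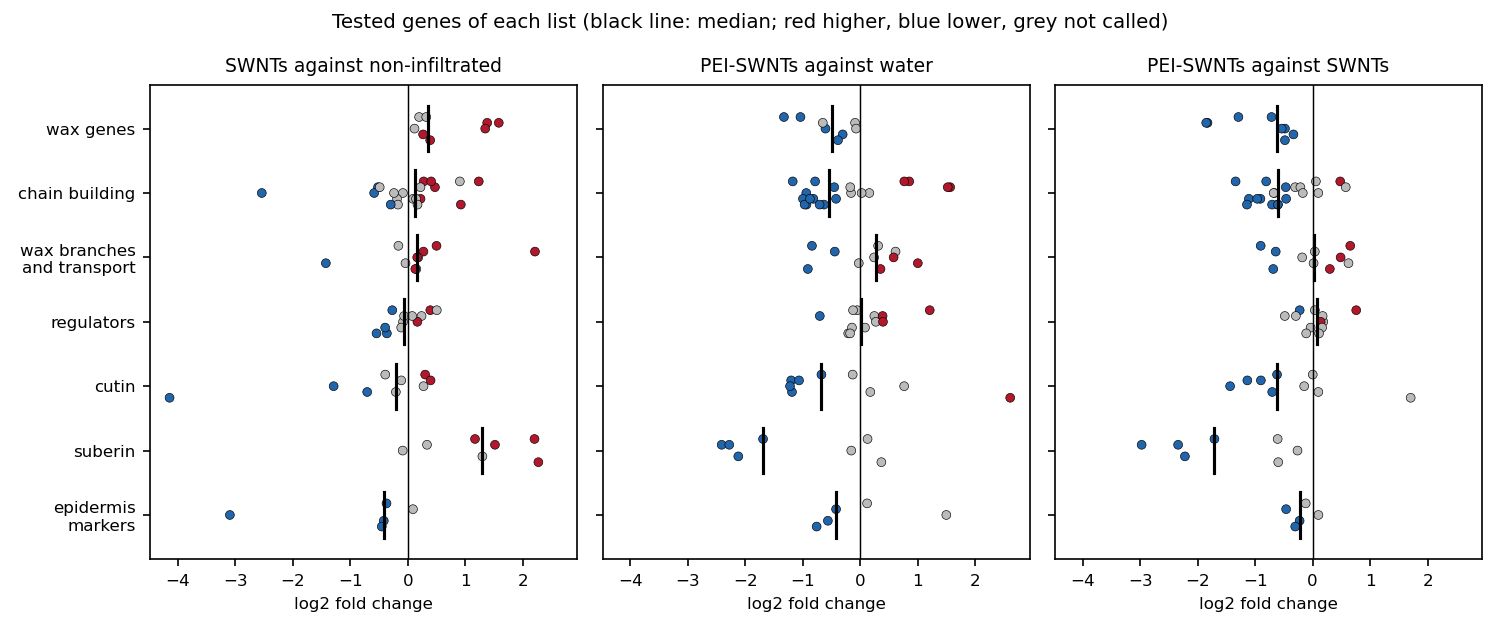
Log2 fold change of every tested gene of each list in 3 comparisons, with the list's median as a black line; red and blue mark genes higher and lower at an adjusted p under 0.05. The medians of the wax, chain building, cutin, suberin and epidermis marker lists lie below 0 in both PEI-SWNTs comparisons. For epidermis markers they are -0.42 against water and -0.23 against SWNTs. Those of the regulators, at 0.01 and 0.07, lie near 0, and those of wax branches and transport are 0.27 and 0.03.

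Further genes of the wax branches and of lipid transport moved in both directions. Of 12 genes, 10 were tested, and in PEI-SWNTs against SWNTs leaves 3 were higher and 3 lower (median 0.03). The fall was largest for LTPG1, a lipid transfer protein anchored at the plasma membrane that takes part in wax export, at -0.90 ± 0.11 (adjusted p = 2.0e-06). The rise was largest for AT3G49210, annotated as an O-acyltransferase of the WSD1 family, at 0.65 ± 0.23 (adjusted p = 0.030). Another gene with that annotation, AT5G12420, rose most in all 3 infiltrated groups against non-infiltrated leaves, by 1.63 with water, 2.21 with SWNTs and 2.25 with PEI-SWNTs. Cytochrome b5 isoform C, CYTB5-C, fell most in those comparisons, by 1.80, 1.43 and 0.80. The counts there were 3 higher and 1 lower with water (median 0.07), 5 and 1 with SWNTs (0.15), and 3 and 4 with PEI-SWNTs (-0.01). Against water, 3 rose and 3 fell with PEI-SWNTs (median 0.27), with CYTB5-C at 1.00 and LTPG2 at -0.91, and 1 rose with SWNTs, ABCG32 at 0.20 (median 0.08). Nothing particular to this list is read from its counts. Of all tested genes, 22.3% were higher and 19.0% lower in PEI-SWNTs against SWNTs leaves, and 27.7% and 24.3% against water. In SWNTs against water the shares were 7.52% and 6.14%. Beside non-infiltrated leaves they were 16.4% and 16.4% with water, 21.6% and 20.3% with SWNTs, and 30.4% and 31.2% with PEI-SWNTs.

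Among 16 regulators of wax genes, 12 were tested. DEWAX is a transcription factor that represses wax genes, among them CER1. Its CPM was 18.8, 13.7, 11.7, 24.2 and 28.0 in non-infiltrated and 20.2, 15.1, 22.4, 15.2 and 26.9 in water-infiltrated leaves. It was 15.3, 27.3, 31.3, 29.2 and 33.4 in SWNTs and 41.7, 49.0, 45.2, 54.6 and 40.2 in PEI-SWNTs leaves. All PEI-SWNTs libraries lay above all others. DEWAX rose with PEI-SWNTs by 1.26 ± 0.23 against non-infiltrated leaves (adjusted p = 9.4e-05), 1.21 ± 0.23 against water (adjusted p = 0.00022) and 0.76 ± 0.23 against SWNTs (adjusted p = 0.012). With SWNTs the change against non-infiltrated leaves was 0.50 ± 0.23 (adjusted p = 0.084), or 0.65 without SWNTs replicate 1 (adjusted p = 0.019).

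MYB94, MYB96 and MYB30 are activators of wax synthesis. MYB94 was lower than in non-infiltrated leaves, whose CPM ran from 9.56 to 11.0, in all 3 infiltrated groups, by 0.27 with water (adjusted p = 0.044), 0.37 with SWNTs (adjusted p = 0.0067) and 0.48 with PEI-SWNTs (adjusted p = 0.00042) on the log2 scale. The call with water was lost on leaving out any of 8 of the 10 libraries (all but water replicates 1 and 2, adjusted p up to 0.12). MYB96 passed the test only in PEI-SWNTs against water (-0.70 ± 0.23, adjusted p = 0.014), with CPM of 27.9 to 33.3 and 37.5 to 63.0 in these groups. MYB30 passed in none of the 6 comparisons, with log2 fold changes from -0.23 to 0.12. SHN1, an activator of cuticle genes, had 0 counts in all 20 libraries. Over the list, 2 were higher and 1 lower in PEI-SWNTs against SWNTs leaves (median 0.07), the fall being that of AT1G55270 at -0.23. Against water, 3 were higher and 1 lower (median 0.01).

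In the other comparisons, between 2 and 6 of the 12 regulators were called. Nothing particular to the list is read from its counts. They stand beside 30.4% of all tested genes higher and 31.2% lower in PEI-SWNTs against non-infiltrated leaves, and 27.7% and 24.3% against water. For PEI-SWNTs against SWNTs leaves the shares were 22.3% and 19.0%. Beside non-infiltrated leaves, 16.4% of all tested genes were higher and 16.4% lower with water, and 21.6% and 20.3% with SWNTs. For SWNTs against water they were 7.52% and 6.14%. Against non-infiltrated leaves, 1 regulator was higher and 2 were lower with water (median -0.14), 2 and 4 with SWNTs (-0.08) and 2 and 3 with PEI-SWNTs (-0.10). The largest called changes with water were those of AT1G55270 (0.22) and HDG1 (-0.28), a homeodomain factor of the epidermis. Among called regulators the largest changes with SWNTs were those of AT1G55270 (0.39) and MYB16 (-0.55), a regulator of cuticle formation. In SWNTs against water, 2 were higher, with WRI4, an activator of wax synthesis in stems, at 0.54, and 0 lower (median 0.10).

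**Figure D5:**
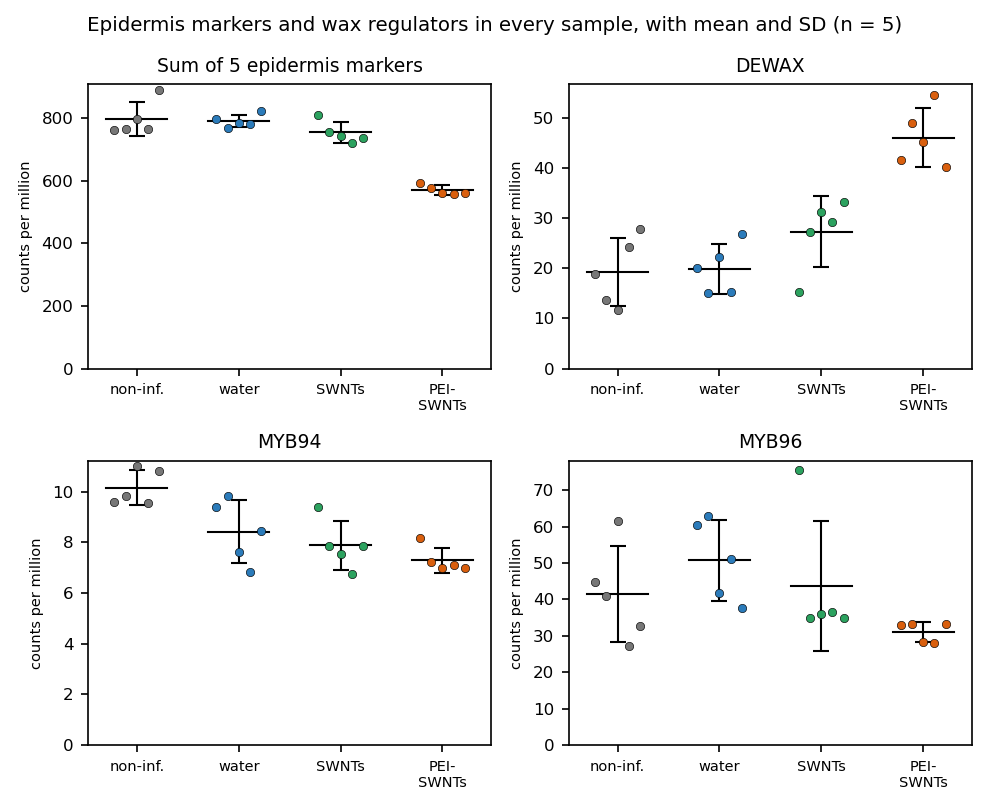
CPM (linear axes from 0) of the summed epidermis markers and of DEWAX, MYB94 and MYB96 in each of the 20 samples, with the mean and SD of each group (n = 5). PEI-SWNTs leaves are lowest for the marker sum (557 to 593) and highest for DEWAX (40.2 to 54.6), and SWNTs replicate 1, the leftmost green point, is lowest of its group for DEWAX and highest for MYB96.

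The range of the group means of log2 CPM, a difference between the highest and the lowest group, ordered the members as CER1 (1.82), WSD1 (1.67), CER3 (1.35), CER2 (1.34), KCS1 (1.05), ABCG11 (0.61), CER6 (0.48) and ABCG12 (0.34). This order was not computed without SWNTs replicate 1. In that library WSD1 had a CPM of 32.1, beside 6.45 to 10.12 in the other SWNTs libraries. The place of WSD1, and its choice for the nearest genes below, thus rest in part on that library. Likeness of pattern was measured as the root mean square difference of log2 CPM, each gene centred on its mean over the 20 samples. Genes were not scaled to their range, so members with small ranges, such as ABCG11, CER6 and ABCG12, tend to lie close by this measure. Among members the difference was smallest between CER6 and ABCG12 (0.13) and between ABCG11 and ABCG12 (0.13), and largest between CER1 and KCS1 (0.84). CER1 and WSD1 differed by 0.45.

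Among all other tested genes, those nearest to CER1 were AT1G11960 (0.44), AT2G04570 (0.47) and CYP707A1 (0.51), an enzyme of abscisic acid breakdown. In SWNTs against water-infiltrated leaves these had log2 fold changes of 1.40, 0.90 and 1.44, beside 1.74 for CER1. Nearest to WSD1 were ERD10 (0.51), a dehydrin, LACS2 (0.53), an acyl-CoA synthetase of cutin synthesis, and CDT1 (0.56), named for cadmium tolerance. Nearest to CER3 were GGT1 (0.21), a gamma-glutamyl transpeptidase, AT4G14746 (0.23) and AT5G45280 (0.24), annotated as a pectin acetylesterase. GGT1 had log2 fold changes of 0.92, 1.15 and 0.89 with water, SWNTs and PEI-SWNTs against non-infiltrated leaves, beside 0.88, 1.34 and 0.81 for CER3.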

How the data were processed

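Per the labels and the study's methods, the authors used Trimmomatic for trimming, aligned to TAIR10 with HISAT2 (defaults) and obtained raw, not normalized counts per gene with featureCounts 2.0.1, and the deposited counts were used as they are. The strand setting and the handling of multi-mapping reads are not given in the sources used here. A second deposited table gives gene lengths, used for 139 genes, and the authors' fold changes, average log2 CPM, F statistics and p-values from edgeR 3.30.3, which were not used. Other lengths are exon unions of RefSeq TAIR10.1, and 146 genes had none.

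Counts were tested with edgeR 4.0.16 (R 4.3.3, limma 3.58.1): average RPKM of at least 1, TMM, 1 quasi-likelihood fit (legacy=TRUE) of the 4 group means over 20 samples, 6 contrasts, Benjamini-Hochberg over 16288 genes. Standard errors are the fold change divided by the root of the F statistic. DESeq2 1.42.0 was an alternative. Figures were drawn with matplotlib 3.10.9 in Python 3.11.15. The procedure was tested on simulated data. Totals of 13387714 to 29737496 counts per library set the precision, and 3 counts were taken as the floor.

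The 10 members and all lists were chosen with earlier results of these data known. Named by rule were all members, the largest called rise and fall of each list, MYB94, MYB96, MYB30, DEWAX and SHN1, and the 3 genes most like each of the 3 members with the widest range. Alternatives covered normalization, filter, tool, dispersion, thresholds, samples in the fit, the replicate block, GC content and length, and each sample left out. Exons of members shared no window of 100 bases with another place in the genome. SWNTs replicates 3 and 4 were the most alike pair of libraries (mean chi-square per gene 3.84, next 7.62), above sampling noise, and were kept as separate samples.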

Additional observations from a re-analysis of the deposited data

Results flagged for a closer look

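In 5 of 36 combinations of a member and a group, 1 library stood apart from the other 4 by more than Dixon's 95% critical value, which chance gives in about 1 of 20. SWNTs replicate 1 did so for 3 members: WSD1 had a CPM of 32.1 there and 6.45 to 10.12 in the other SWNTs libraries, CER2 had 67.7 against 39.2 to 46.0, and CER6 had 1274 against 1126 to 1133. Water replicate 1 had a CPM of 79.1 for CER1, with 32.5 to 42.4 in the other water libraries. PEI-SWNTs replicate 4 had a CPM of 123 for CER3, with 187 to 208 in the other PEI-SWNTs libraries.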

How the results depend on the processing

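The 48 member results were recomputed under 37 settings. Of 1272 values, 1181 kept their call, 69 lost it, 22 gained it and 0 reversed. With stricter and joint tests set aside, 27 of 1104 lost and 12 gained it, and 23 of the 27 belonged to water against non-infiltrated leaves. The number of members called moved as follows. In water against non-infiltrated leaves the main count of 5 became 3 with library size alone, 3 with only the 10 samples compared, 2 with glmTreat at 1.2-fold, 2 at an adjusted p under 0.01, 0 at 2-fold or more and 8 in the joint test of 3 treatments. In SWNTs against non-infiltrated leaves, 5 became 3 with only the 10 samples compared, 3 with glmTreat, 2 at an adjusted p under 0.01, 3 at 2-fold and 8 in the joint test. In PEI-SWNTs against non-infiltrated leaves, 4 became 0 at 2-fold and 8 in the joint test. The joint test asks whether any of the 3 treatments differs from non-infiltrated leaves. It gives each member 1 p-value, repeated in these 3 comparisons, so its 8 is 1 result and not a count for any comparison. In SWNTs against water, 3 became 1 with glmTreat, 1 at an adjusted p under 0.01 and 1 at 2-fold. In PEI-SWNTs against water, 5 became 3 with glmTreat and 2 at 2-fold, and in PEI-SWNTs against SWNTs, 8 became 3 at 2-fold. With 1 library left out, these counts ran from 2 to 5, 3 to 6, 4 to 5, 3 to 4, 5 to 5 and 8 to 8. The cause of these moves was not tested beyond the settings' own construction. WSD1 in SWNTs against water passed with DESeq2 (log2 fold change 1.19, adjusted p = 0.031) and CER2 in SWNTs against non-infiltrated leaves passed with DESeq2, with the GC and length offset, with SWNTs replicates 3 and 4 merged and without either of 2 libraries.

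The replicate numbers were not treated as pairs: deviations of same-numbered samples correlated above 0.1 in 9 of 30 pairs (r from -0.36 to 0.29), and 7 were closest to their own number. With a replicate block the counts of members called were 5, 5, 4, 3, 5 and 8, in the same order as above, and with a replicate block and the GC and length offset 6, 6, 4, 3, 5 and 8. The settings were also applied to the other lists and 3 regulators after the data were seen: setting thresholds aside, the falls among chain building genes in PEI-SWNTs against SWNTs numbered 11 to 12, and DEWAX kept its 3 calls with PEI-SWNTs.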

Other observations

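Most tested cutin genes were lower in PEI-SWNTs leaves. Of 13 genes of cutin, the polyester of the cuticle, 9 were tested, and 5 fell and 0 rose in PEI-SWNTs against SWNTs leaves (median log2 fold change -0.62), led by GPAT8, an acyltransferase of cutin synthesis, at -1.44 ± 0.14 (adjusted p = 2.0e-07). Against non-infiltrated leaves 7 fell and 0 rose (median -1.02), led by LTL1, a lipase, at -2.44. Against water 5 fell and 1 rose (median -0.68), the rise being that of LTL1, whose mean CPM was 0.223 with water and 1.33 with PEI-SWNTs. With water and SWNTs, 2 rose and 2 fell, and 2 rose and 3 fell, against non-infiltrated leaves. Of all tested genes, 19.0% fell and 22.3% rose in PEI-SWNTs against SWNTs leaves. These shares were 31.2% and 30.4% against non-infiltrated leaves, and 24.3% and 27.7% against water. With water and with SWNTs against non-infiltrated leaves, 16.4% and 20.3% fell and 16.4% and 21.6% rose. LTL1 had a CPM of 0.860 to 13.2 in non-infiltrated leaves and at most 0.407 with water, where libraries reached the floor. It reached an average of 1 RPKM only through non-infiltrated leaves, so it was tested because of the group where it was high. Its mean RPKM was 4.77 there, 0.142 with water, 0.273 with SWNTs and 0.846 with PEI-SWNTs.

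Suberin genes, whose polyester seals roots and wounds, had another pattern. Of 13 genes 7 were tested, and 4 rose and 0 fell with both water (median 1.19) and SWNTs (median 1.29) against non-infiltrated leaves, which share their controls. Of all tested genes, 16.4% rose and 16.4% fell with water there, and 21.6% and 20.3% with SWNTs. In PEI-SWNTs against SWNTs leaves, described below, 22.3% rose and 19.0% fell. The largest rise with SWNTs was that of FAR1, a fatty acyl-CoA reductase, at 2.27 ± 0.40 (adjusted p = 0.00018), and with water that of GPAT5, an acyltransferase, at 1.58 ± 0.55 (adjusted p = 0.034). GPAT5 reached an average of 1 RPKM only through water and SWNTs leaves. Its mean RPKM was 0.594 in non-infiltrated, 1.79 in water, 1.72 in SWNTs and 0.343 in PEI-SWNTs leaves. The same holds for ABCG6 of this list, with 0.964, 2.20, 2.39 and 0.512. The counts and medians thus hold genes that were tested because of the groups where they were high. In PEI-SWNTs against SWNTs leaves 4 fell and 0 rose (median -1.71), the largest fall being that of CYP86A1, a fatty acid hydroxylase, at -2.97 ± 0.79 (adjusted p = 0.0055), with 1 to 14 counts in the PEI-SWNTs libraries. CYP86A1 had a mean RPKM of 1.54 in non-infiltrated, 1.197 in water, 1.96 in SWNTs and 0.246 in PEI-SWNTs leaves. That it was tested thus rested in part on SWNTs leaves, the group against which its fall is given. The rises were sensitive to single settings, with 1 to 5 genes called with water and 2 to 6 with SWNTs. Without SWNTs replicate 1, 2 rose and 0 fell with SWNTs against non-infiltrated leaves.

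Of 8 genes of abscisic acid and dehydration, 0 rose and 5 fell with water against non-infiltrated leaves (median -1.17), led by RD29B at -2.21 ± 0.59 (adjusted p = 0.0081). With SWNTs 1 rose, NCED3, an enzyme of abscisic acid synthesis, at 1.21, and 2 fell (median -0.52). Without SWNTs replicate 1, 0 rose and 5 fell. In PEI-SWNTs against SWNTs leaves 0 rose and 2 fell (median -0.29), and against non-infiltrated leaves 0 rose and 5 fell (median -0.82). Against water 2 rose, RD29B at 2.08 and RAB18 at 0.72, and 1 fell, RD29A at -0.84 (median -0.02). Beside non-infiltrated leaves, 16.4% of all tested genes rose and 16.4% fell with water, and 21.6% and 20.3% with SWNTs. With PEI-SWNTs 22.3% rose and 19.0% fell against SWNTs. The shares were 30.4% and 31.2% against non-infiltrated leaves, and 27.7% and 24.3% against water.

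SWNTs replicate 1, which had the highest CPM of its group for 8 of 8 members, had a CPM of 75.6 for MYB96 and 15.3 for DEWAX, where the other 4 SWNTs libraries had 34.9 to 36.6 and 27.3 to 33.4. In the non-infiltrated group replicate 3 was highest for 5 of 8 members, with 61.4 for MYB96 and 11.7 for DEWAX, the highest and the lowest of that group. Replicate 4 was lowest for 6 of 8, with 27.1 for MYB96, the lowest of the group, and 24.2 for DEWAX. In PEI-SWNTs leaves replicate 4 was lowest for 6 of 8 members and had the highest DEWAX, at 54.6, and the lowest MYB96, at 27.9. In each of the other groups replicate 5 had the highest DEWAX, at 28.0 in non-infiltrated, 26.9 in water and 33.4 in SWNTs leaves. It was lowest for 0, 1 and 6 of the 8 members there, with 32.8, 37.5 and 34.9 for MYB96. These libraries were singled out after their values were seen and no relation was tested. In the water group no replicate was highest for more than 3 members.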
